A study of Mus musculus with 2 samples.

Results

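The 129 olfactory receptor genes described here are the Olfr genes of mouse chromosome 7 that lie outside the class I receptor cluster, which occupies 102.4 to 105.4 Mb. They were taken from the GENCODE M21 annotation of GRCm38 as every symbol made of Olfr and a number, with or without a suffix. Olfr17 and 6 of its neighbours (Olfr710, Olfr711, Olfr713, Olfr714, Olfr715 and Olfr716) were left out. The annotation holds 1405 Olfr genes on the autosomes and X. Olfr290 has 2 overlapping records there and was counted once, by the longer record. Of the 129 genes, 107 are annotated as protein-coding and 22 as a type of pseudogene. The positions were set against domain boundaries called from in situ Hi-C, a method that joins DNA ends lying close together in the nucleus, so that a boundary is a place across which few contacts are seen. Mature olfactory sensory neurons that express Olfr17, also called P2, were sorted from P2-GFP mice: adults of strain 129P2/OlaHsd, both sexes mixed, with 23000 cells in replicate 1 and 20000 in replicate 2, no treatment, and olfactory epithelium as the tissue. These 2 samples are the only group, and their contacts were combined by the authors before boundaries were called. Each position and score below is therefore a single value with no error between replicates, and no test between conditions exists. The depth of the combined contact list is unknown. No expression values were used, so the sorted cell type was not checked against its markers.

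Olfactory receptors are G protein-coupled receptors with mostly intronless coding sequences, and each mature sensory neuron transcribes a single receptor allele while the others are silenced in heterochromatin. Mammalian receptors fall into class I, related to fish receptors and gathered in 1 cluster in the mouse, and class II, spread over many clusters. In these neurons receptor clusters of different chromosomes are known to meet in the nucleus, and enhancers bound by Lhx2 and Ebf act on receptor genes from within the clusters.

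By coding sequence, 2 of the 107 protein-coding members are near copies of class I genes, and the others are not. Each coding sequence was aligned with those of the other members and of 128 class I genes of chromosome 7. For the other 105 another member was more similar than any class I gene, by a small margin for Olfr1350 (61.4% against 61.2%). Their highest identity to any class I gene had a median of 61.3% and did not exceed 64.0%. The closest member was in the same group of neighbouring genes for 99 of 107, and no class II genes of other chromosomes were aligned. The comparison can therefore find near copies of class I genes, but does not by itself give the class of the 105. Olfr503 was 97.1% identical to the class I gene Olfr658 and at most 61.4% identical to any member. Its neighbour Olfr504 was 95.8% identical to the class I gene Olfr657, also with 61.4% as its highest identity to a member. Both lie in the largest cluster, 21.3 kb apart, in the interval from Olfr479 to Olfr509. By sequence they go against the class II label, and they are kept here because the selection was by position.

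The members lie in 7 separate groups along the chromosome. A cluster was taken as a run of at least 5 members with neighbouring starts under 500 kb apart, and 5 groups with 125 members met this. The other 4 members form a pair near 85 Mb and a pair near 100 Mb. A gene's start is its annotated 5′ end, and a boundary's position is the midpoint of its bin of 5 kb. The authors give each boundary a score without a unit and a class: all Strong scores lay above 0.5 and all Weak scores below it. The 129 starts fell into 12 of the 419 intervals between neighbouring boundaries on the chromosome, flanked by 19 boundaries, of which 9 were Strong and 10 Weak. Strong boundaries made up 47.4% of these 19, against 58.3% of the 420 on chromosome 7 and 53.4% of all 7576. Their median score was 0.443, against 0.595 on the chromosome and 0.545 in the whole list.

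**Figure D1:**
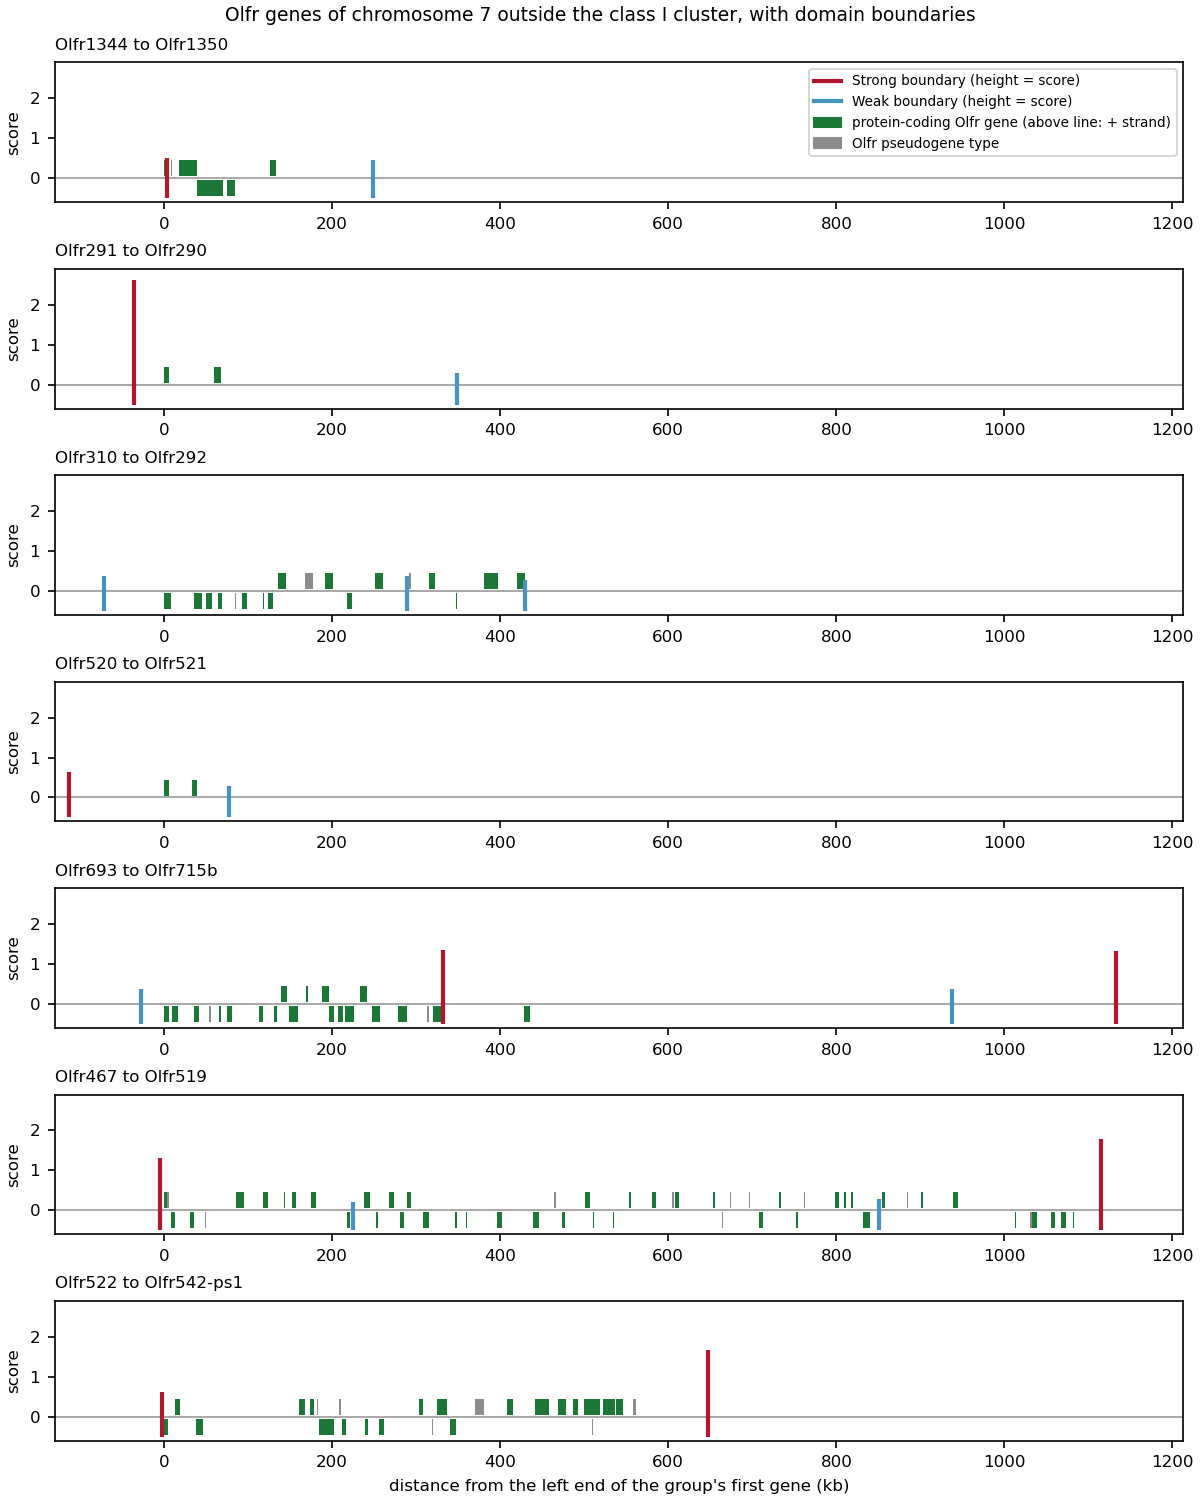
Map of the 7 groups, each drawn from the left end of its first gene (horizontal axis, kb), with genes as boxes above the line for the plus strand and below it for the minus strand, and boundaries as vertical lines whose top is the authors' score (vertical axis, no unit); protein-coding genes are green, pseudogenes grey, Strong boundaries red and Weak ones blue. Only boundaries next to a member are drawn, and the 7 genes left out are not. The cluster from Olfr522 to Olfr542-ps1 has no line inside it, while the cluster from Olfr467 to Olfr519 is cut at 2 positions by Weak boundaries with scores of 0.211 and 0.277.

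The cluster from Olfr522 to Olfr542-ps1 was held whole by a single interval between Strong boundaries. It lies at 140159999 to 140722112, near the distal end of the chromosome, and has 25 members, 19 of them protein-coding. Its left boundary (140155001 to 140160000, score 0.612) reached the 3′ end of Olfr522, and its right boundary (140805001 to 140810000, score 1.68) lay 85.4 kb beyond Olfr542-ps1, in an exon of the zinc finger gene Zfp941. The interval of 650 kb was the longest of the 12, and 91.7% of all intervals in the list were at most this long. The starts of its receptor genes spread over 553 kb, or 85.0% of the interval. Olfr535, in the middle, was the member farthest from any boundary in the whole set, at 323 kb. The nearest to a boundary in this cluster was Olfr522, at 7.26 kb. The median distance over the 25 genes was 184 kb, the highest of the 5 clusters.

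The cluster with most members, from Olfr467 to Olfr519 (107812263 to 108894420), was bordered by high-scoring Strong boundaries and cut inside by Weak ones. Its left border (107805001 to 107810000, score 1.32) lay 4.76 kb before Olfr467 and 8.72 kb before the pseudogene Olfr468-ps1, and its right border (108925001 to 108930000, score 1.79) lay 33.1 kb beyond Olfr519, over an exon of the inflammasome-related gene Nlrp10. Between these Strong boundaries lay 1120 kb with 52 members and no other protein-coding gene. The first inner boundary (108035001 to 108040000) had a score of 0.211, which was higher than or equal to 3.47% of all scores in the list. The second (108660001 to 108665000) had a score of 0.277. They cut the cluster into intervals of 230 kb with 11 members, 625 kb with 31 members and 265 kb with 10 members. The middle interval held more members than any other of the 12, and receptor starts spread over 96.2% of it. Olfr493, near its centre, lay 309 kb from a boundary. Olfr478 and Olfr510, on the outer sides of the inner boundaries, lay at 3.51 and 3.92 kb. Simulated reads of the reference were unique for 77.8% of positions in this cluster, the lowest share of the 5, against 82.5% on the whole chromosome. Around the boundary with the score of 0.211 the share was 75% within 50 kb. The part of read uniqueness in the number or score of these boundaries was not tested.

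The cluster around Olfr17 was represented by 21 members from Olfr693 to Olfr715b (106675005 to 107110369). It was cut by a Strong boundary (107005001 to 107010000, score 1.36) that covers the start of Olfr2, the I7 receptor, known for its response to octanal. The Olfr2 start lay 1.43 kb from the midpoint, the shortest distance of all 129 members. On the left of this boundary an interval of 360 kb held 20 members, at 55.6 members per Mb the densest of the 12, and no other protein-coding gene apart from receptors. Its other border was a Weak boundary (score 0.371) 27.5 kb before Olfr693. On the right, Olfr715b was the only member in an interval of 605 kb, which also held 5 of the left-out genes, Olfr17 among them. Olfr702, in the middle of the left interval, lay 174 kb from a boundary.

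Weak boundaries alone bordered and cut the cluster from Olfr310 to Olfr292 (86268487 to 86697507), which has 18 members. Its intervals were 360 kb long with 13 members and 140 kb long with 5. The scores of its 3 boundaries were 0.369, 0.372 and 0.282. The left one lay 71.0 kb before Olfr310, among type 2 vomeronasal receptor genes. The middle one (86555001 to 86560000) covered the start of Olfr296-ps1, 1.98 kb from the midpoint. The right one (86695001 to 86700000) covered the 3′ end of Olfr292, whose start lay at 9.17 kb. Olfr304 was the member farthest from a boundary here, at 171 kb.

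The smallest cluster, from Olfr1344 to Olfr1350 (6438688 to 6571401), lies near the centromeric end and has 9 members. A Strong boundary with a score just above the class limit (6440001 to 6445000, score 0.512) overlapped the 3′ end of Olfr1344 and left that gene in an interval of 165 kb with 7 other protein-coding genes, among them the zinc finger genes Zfp28, Zfp583, Zfp667 and Zfp78. The other 8 members shared an interval of 245 kb with no other protein-coding gene. Its right border was a Weak boundary (score 0.443) in Zim1, a gene of the imprinted Peg3 domain, 116 kb beyond Olfr1350. The median distance to a boundary was 44.4 kb, the lowest of the 5 clusters, with Olfr1344 at 3.81 kb, the pseudogene Olfr1345-ps1 at 4.37 kb and Olfr1350 at 122 kb.

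Both pairs lay between a Strong and a Weak boundary. Olfr291 and Olfr290 shared an interval of 385 kb with the vomeronasal receptor genes Vmn2r65, Vmn2r66 and Vmn2r67. Its left border (84815001 to 84820000) had a score of 2.62, the highest of the 19, which was higher than or equal to 99.3% of the list. Olfr291 lay 36.1 kb and Olfr290 95.6 kb from it. Olfr520 and Olfr521 shared an interval of 190 kb with Slco2b1, an organic anion transporter gene, and Tpbgl. Olfr520 lay 77.2 kb and Olfr521 44.0 kb from the Weak boundary on their right (score 0.286).

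Of the 10 outer ends of the 5 clusters, 6 had a boundary within 50 kb (60%), near the share at the ends of the 28 Olfr clusters of other chromosomes, where it was 36 of 56 ends (64.3%). In the clusters described here the nearest boundary lay 2.50, 3.81, 4.76, 27.5 and 71.0 kb from the 5 left ends. From the 5 right ends it lay 0.0065, 33.1, 85.4, 103 and 116 kb away. The right end of the Olfr310 to Olfr292 cluster lay inside a boundary bin. At 4 of the 6 edges the boundary was Strong. The right end of the Olfr693 to Olfr715b run is not the end of the physical cluster, since Olfr715 and Olfr716 lie beyond it. Inside the 5 clusters there were 6 boundaries, 2 Strong and 4 Weak, with a median score of 0.327. This is 2.27 per sequenced Mb, beside 2.96 per Mb on the whole chromosome and 3.11 per Mb in the class I cluster, where 3 of 9 boundaries were Strong. The 6 include the boundary at Olfr1344, 3.81 kb inside the left end of its cluster. They also include the one at Olfr292, whose midpoint lies 0.0065 kb inside the right end of its cluster. Both are counted among the edges above as well, so the density of 2.27 depends on that choice. The density of the clusters ranged from 0 in Olfr522 to Olfr542-ps1 to 7.53 per Mb in Olfr1344 to Olfr1350, where it rests on 1 boundary in 133 kb. With Strong boundaries alone the density inside was 0.757 per Mb, and the 129 members fell into 9 intervals with a median length of 800 kb.

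**Figure D2:**
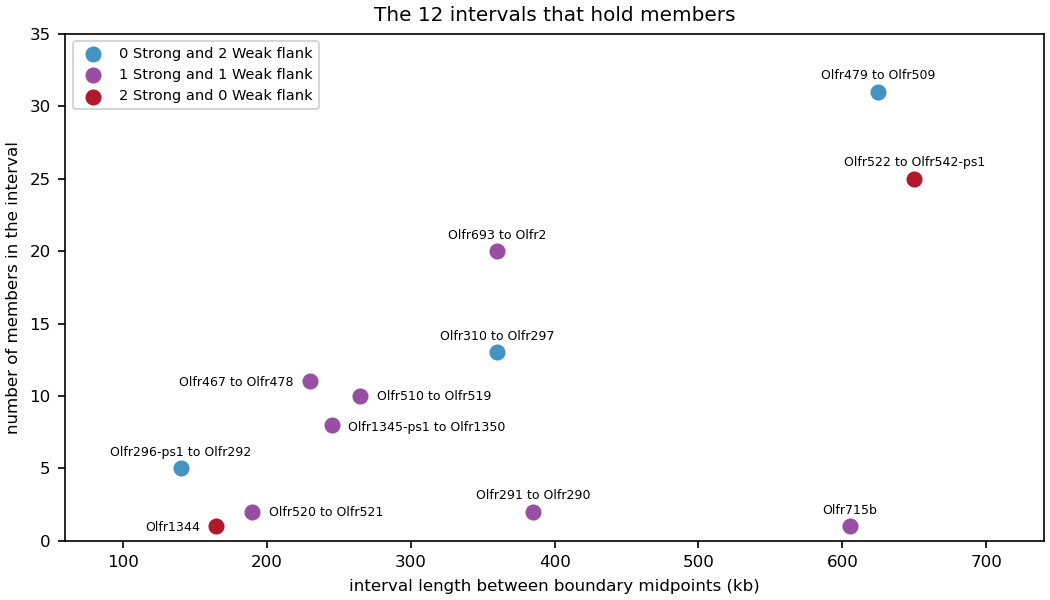
The 12 intervals that hold members, by length between boundary midpoints (horizontal axis, kb) and number of members (vertical axis), coloured by the class of the flanking boundaries. The intervals with most members, Olfr479 to Olfr509 and Olfr522 to Olfr542-ps1, have similar lengths of 625 and 650 kb, but the first is flanked by Weak and the second by Strong boundaries.

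Interval length and gene number did not follow each other in every case. The 3 intervals of at least 500 kb held 57 members, but 56 of these were in 2 of them and Olfr715b was alone in the third. Such long intervals were 25.0% of the 12 and 15.9% of all 7556 in the list. The median length was 312.5 kb over the 12, 245 kb on the chromosome and 260 kb in the list. Only Strong boundaries flanked 26 members, only Weak ones 49, and a Strong and a Weak one 54.

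Over all members the median distance from a start to the nearest boundary was 97.6 kb, with quartiles of 44.4 and 167 kb. Olfr genes of other chromosomes had a median of 98.6 kb (n = 1113), the class I cluster 106 kb (n = 156) and all protein-coding genes 59.2 kb (n = 21755). A boundary lay within 25 kb of 17 members, or 13.2% (95% Wilson interval 8.39 to 20.1). The share was 12.4% for Olfr genes of other chromosomes, 6.41% for the class I cluster, 21.8% for the 1779 other protein-coding genes of chromosome 7 and 23.9% for all protein-coding genes. It was 12.1% for protein-coding members and 18.2% for the 22 pseudogenes. Within 10 kb it was 7.75% of members (6.54% of the protein-coding ones and 13.6% of the pseudogenes), 3.85% of the class I cluster, 5.03% of Olfr genes of other chromosomes, 9.78% of other protein-coding genes of chromosome 7 and 11.5% of all protein-coding genes. Within 50 kb it was 27.1% of members (28.0% of the protein-coding ones and 22.7% of the pseudogenes), 23.7% of the class I cluster, 26.4% of Olfr genes of other chromosomes, 40.8% of other protein-coding genes of chromosome 7 and 43.2% of all protein-coding genes. Members of a cluster share the same few boundaries, so their distances are not independent values and these intervals are too narrow. The nearest boundary was Strong for 60 members and Weak for 69.

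**Figure D3:**
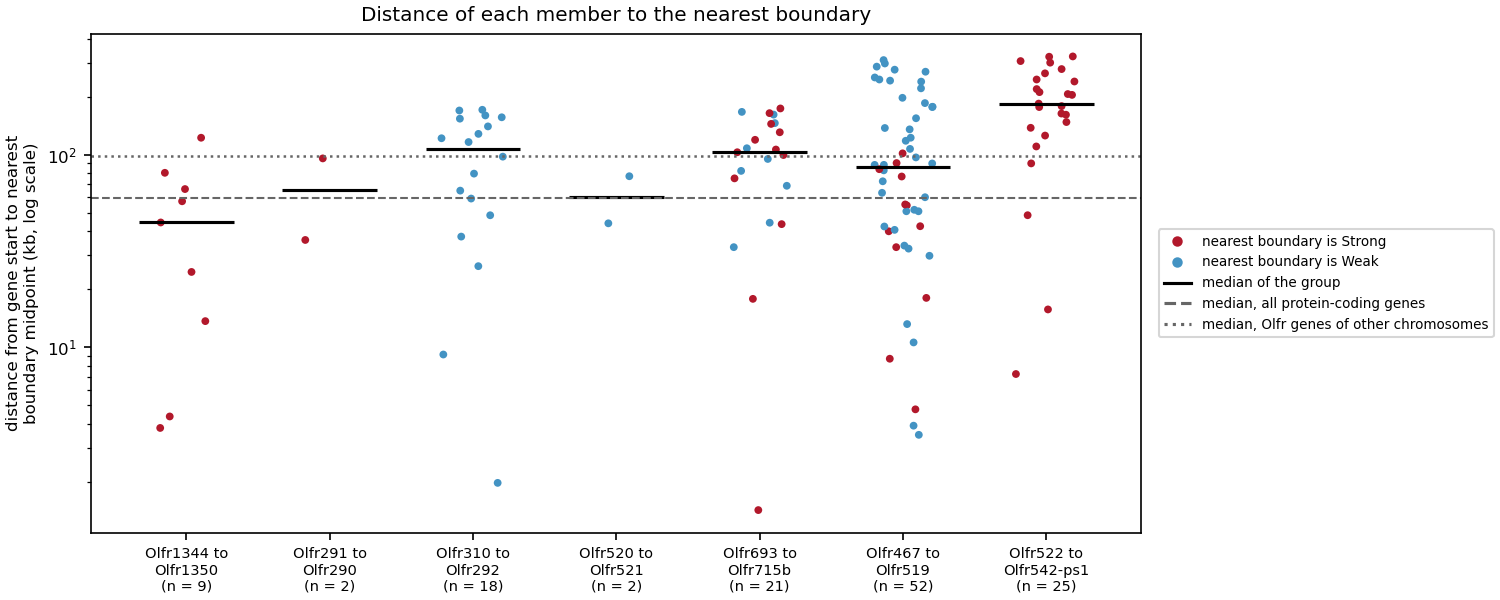
Distance from each member's start to the nearest boundary midpoint (vertical axis, kb, log scale) in the 7 groups, coloured by the class of that boundary; bars are group medians. The bars of the 5 clusters run from 44.4 kb (Olfr1344 to Olfr1350) to 184 kb (Olfr522 to Olfr542-ps1), and the dashed and dotted lines mark the medians of 59.2 kb for all protein-coding genes and 98.6 kb for Olfr genes of other chromosomes.

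Few neighbouring receptor genes were parted by a boundary. Among neighbouring receptor genes outside the class I cluster, counted with the left-out genes, 129 pairs had starts under 500 kb apart, and 5 pairs (3.88%) had a boundary between their starts. The share over all other neighbouring Olfr genes was 5.38%. Of these 5 boundaries, 3 lay between genes that point away from each other: Olfr2 and Olfr713, Olfr478 and Olfr479, and Olfr509 and Olfr510. That is 3 of the 27 divergent pairs (11.1%, 95% Wilson interval 3.85 to 28.1), against 2 of 77 pairs on the same strand (2.60%) and 0 of 25 convergent pairs, which allows up to 13.3% by the same interval. Neighbouring pairs share genes and are not independent, so these intervals are too narrow, and a preference for divergent pairs was not tested. Per Mb between the starts, pairs with a boundary numbered 5.43 for divergent, 1.24 for same-strand and 0 for convergent pairs. Over the other Olfr genes, the shares were 5.46% for divergent, 5.86% for same-strand and 2.91% for convergent pairs. Their rates per Mb were 2.31, 2.54 and 1.07 in the same order.

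The 7 members whose nearest boundary has its midpoint inside a cluster and within 10 kb of their start are shown here. Each is given by the 120 bases before the start, 5′ to 3′ on the strand of the gene. For Olfr292 this boundary is the right border of its cluster, with a midpoint 0.0065 kb inside the cluster's end. Capitals mark matches, on either strand, to TAATNA (the homeodomain core that Lhx2 can bind) or CCCNNGGG (the core of the Ebf palindrome). Sequences are from the GRCm38 reference.
Olfr1344, plus strand, chr7:6438568-6438687: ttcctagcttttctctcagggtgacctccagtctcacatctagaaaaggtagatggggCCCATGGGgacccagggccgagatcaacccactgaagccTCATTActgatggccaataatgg
Olfr1345-ps1, plus strand, chr7:6446754-6446873: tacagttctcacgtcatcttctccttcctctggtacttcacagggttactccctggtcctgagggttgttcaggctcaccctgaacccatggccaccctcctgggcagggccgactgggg
Olfr2, minus strand, chr7:107006073-107006192: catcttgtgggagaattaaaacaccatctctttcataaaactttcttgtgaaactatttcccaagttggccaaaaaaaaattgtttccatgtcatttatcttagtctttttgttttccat
Olfr478, minus strand, chr7:108033990-108034109: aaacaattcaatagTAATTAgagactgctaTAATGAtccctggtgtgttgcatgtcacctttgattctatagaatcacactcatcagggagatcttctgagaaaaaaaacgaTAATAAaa
Olfr510, plus strand, chr7:108666298-108666417: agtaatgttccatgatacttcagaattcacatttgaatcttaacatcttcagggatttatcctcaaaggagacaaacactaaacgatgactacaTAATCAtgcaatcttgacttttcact
Olfr296-ps1, plus strand, chr7:86559358-86559477: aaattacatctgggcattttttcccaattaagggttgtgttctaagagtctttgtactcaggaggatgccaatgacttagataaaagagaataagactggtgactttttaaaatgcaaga
Olfr292, plus strand, chr7:86688210-86688329: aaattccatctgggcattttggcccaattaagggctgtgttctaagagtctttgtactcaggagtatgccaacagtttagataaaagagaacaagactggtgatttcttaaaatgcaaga
Of these 7 sequences, that of Olfr1344 holds CCCNNGGG, and those of Olfr1344, Olfr478 and Olfr510 hold TAATNA. The last pair is alike: 108 of the 120 bases before Olfr296-ps1 and Olfr292 are the same, or 90%. These genes lie near the inner and the right boundary of the same cluster. Among all 45 pairs of the 10 members with a boundary within 10 kb, the next highest identity was 35.8% and the median 25.8%.

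TAATNA matches were frequent before receptor starts. In the 300 bases before the start, 95 of 129 members (73.6%) held at least 1 match on either strand, against 27.3% of 21747 protein-coding genes and 62.0% of 129 protein-coding class I genes. It was 72.9% among protein-coding members and 77.3% among pseudogenes. The upstream sequence of members was poor in G and C, with a median of 36.7% against 53.3% for protein-coding genes. Among genes whose upstream GC content lay between the members' quartiles (32.7 and 42.3%), the share was 78.5% of 65 members and 60% of 2421 other protein-coding genes. CCCNNGGG, which is the same on both strands, occurred before 16.3% of members (17.8% of the protein-coding ones and 9.09% of the pseudogenes), 16.3% of protein-coding class I genes and 15.5% of all protein-coding genes. In the same GC range it occurred before 12.3% of members and 3.47% of other genes. TATAAA, the TATA box core, occurred on either strand before 38.8% of members (39.3% of the protein-coding ones and 36.4% of the pseudogenes), 34.9% of protein-coding class I genes and 13.7% of all protein-coding genes. Between the same quartiles it occurred before 41.5% of members and 32.8% of other genes. For 14 protein-coding members the annotation starts at the coding sequence, so that the window is not the promoter. A match is a description of the letters and not a measured binding site.

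Matches to the CTCF core consensus were looked for within 10 kb of the 19 flanking boundaries, since CTCF, a zinc finger protein, halts cohesin and marks many domain borders. They were found at 10 of the 19 (52.6%), against 61.9% of the boundaries on chromosome 7 and 58.0% of all boundaries. Of the 6 boundaries inside clusters 2 had a match (33.3%), those beside Olfr1344 and between Olfr509 and Olfr510. No match to these letters lay within 10 kb of the Strong boundaries at Olfr2 (score 1.36), before Olfr467 (score 1.32) and before Olfr291 (score 2.62). The match nearest to the midpoint is shown at 7 of the 10, as 30 bases of GRCm38 with the 12 matched bases in capitals, on the strand of the match.
Left of Olfr1345-ps1 (score 0.512), plus strand, chr7:6434742-6434771: cctttgttgCCACTAGATGGCagtatttaa
Left of Olfr520 (score 0.631), plus strand, chr7:99619046-99619075: ctatctccaCCAGCAGATGGCgcctgcatg
Right of Olfr519 (score 1.79), minus strand, chr7:108934143-108934172: acacagttgCCACCAGGTGGCggcacagag
Left of Olfr522 (score 0.612), plus strand, chr7:140150930-140150959: agcctgttaCCAGCAGAGGGCtttatttca
Between Olfr509 and Olfr510 (score 0.277), plus strand, chr7:108659058-108659087: tcagacacaCCATAAGAGGGCaatggatca
Right of Olfr542-ps1 (score 1.68), minus strand, chr7:140810701-140810730: ccacagaagCCAGAAGAGGGCatcagattc
Right of Olfr1350 (score 0.443), minus strand, chr7:6688928-6688957: ctgtggaaaCCAGAAGAGGGCatcagatcc
The first 4 lie outside masked repeats and the last 3 in sequence that the reference masks as repeats. Over the 10 boundaries, the nearest match lay in masked repeats at 6, and at 5 the matched bases were the same, CCAGAAGAGGGC. Over all boundaries of chromosome 7, 65.1% of 558 core matches were in masked repeats and 54.5% read CCAGAAGAGGGC. A stricter form of the consensus was matched at 4 of the 19 boundaries (21.1%), against 18.6% on the chromosome and 13.8% in the list. The match left of Olfr522 lies in an exon of Sprn and the match right of Olfr542-ps1 in an exon of Zfp941. The match left of Olfr1345-ps1 lies in an intron of Gm20715 and the match right of Olfr1350 in an intron of Zim1. The other 3 lie outside annotated genes.

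Members of a group resembled each other in coding sequence more than members of different groups did. Coding sequences were 912 to 1026 bases long, and 106 of 107 lay in a single exon. The median identity was 65.1% over 1338 pairs within a group and 58.9% over 4333 pairs between groups, where the highest value was 67.4% (Olfr2 and Olfr524). It was 57.0% between members and class I genes. By cluster the median was 66.8% from Olfr467 to Olfr519, which gave 861 of the 1338 pairs, and 65.3% from Olfr522 to Olfr542-ps1. It was only 61.0% from Olfr1344 to Olfr1350, 60.5% from Olfr310 to Olfr292 and 60.2% from Olfr693 to Olfr715b. Olfr291 and Olfr290 were 97.5% identical, and Olfr520 and Olfr521 89.4%. For 99 of 107 members the most similar member was in the same group, and for 84 it was in the same interval. The other 15 had it across a boundary of their cluster. The 99 and the 84 include Olfr503 and Olfr504, each the closest member of the other at 61.4%. Class I genes were more similar to them (97.1% and 95.8%). Sharing the interval is fixed in the 3 groups that lie in a single interval. In the 4 others, the most similar member was in the same interval for 63 of 78 members (80.8%), while 599 of all 1165 pairs within these groups (51.4%) shared an interval. Over the 99 members with their most similar member in the same group, the median distance to it was 68.1 kb. All pairs of a group were not matched to this distance, and the part of distance in the 2 shares was not tested. These joint shares differ by cluster, and 861 of the 1165 pairs are from Olfr467 to Olfr519. There it was 35 of 42 members, with 36, 300 and 28 pairs inside the 3 intervals. From Olfr693 to Olfr715b it was 16 of 17, and 153 of 171 pairs shared an interval. From Olfr1344 to Olfr1350 it was 6 of 7, and 21 of 28 pairs did. In the cluster from Olfr310 to Olfr292 it was 6 of 12. Of its 105 pairs, 55 and 6 lay inside the 2 intervals and 44 across the inner boundary. Here the most similar member did not share the interval more often than all pairs did. For 53 members the highest identity was at least 90%, up to 98.9% between Olfr707 and Olfr1532-ps1. For 2 members a left-out gene was more similar than any member: Olfr715b was 99.0% identical to Olfr715, and Olfr6, counted above with its closest member in another group (Olfr524, 64.9%), was 72.8% identical to Olfr711. Reads from such copies can be hard to assign, and how the authors treated them is not stated.

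Identity across the inner boundaries differed from boundary to boundary. In the cluster from Olfr467 to Olfr519, the median identity was 70.7% within the left interval, 70.6% within the middle one and 83.3% within the right one. It was 69.0% between the left and the middle interval, on either side of the boundary between Olfr478 and Olfr479 (score 0.211). It was 60.9% between the middle and the right interval, on either side of the boundary between Olfr509 and Olfr510 (score 0.277). Olfr510 itself, the first gene on the right, was 88.0% identical to Olfr507 on the left, so this gene's closest relative lies across the boundary. Olfr513, also on the right, was at most 64.3% identical to any member, and that member (Olfr502) lies across the boundary too. In the cluster from Olfr310 to Olfr292 similar genes lay on both sides of the inner boundary: Olfr298 and Olfr294 were 92.0% identical, and Olfr297 and Olfr295 were 90.5% identical. Olfr2, at the Strong boundary of its cluster, was at most 67.4% identical to any other member. Pairs of genes share members, so these medians are descriptions and carry no test.

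**Figure D4:**
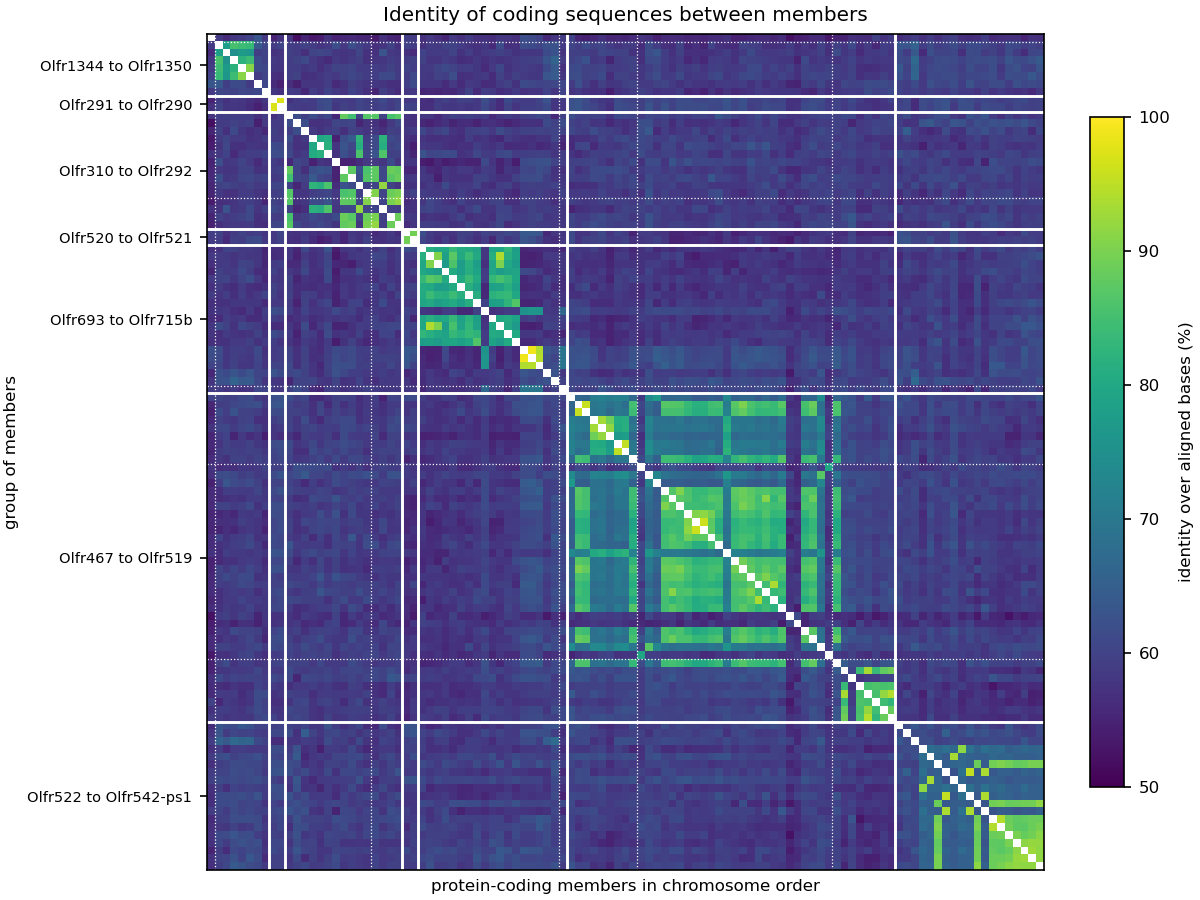
Identity of coding sequences between the 107 protein-coding members, in chromosome order on both axes, as percent of aligned bases (colour). Solid white lines separate the 7 groups and dotted lines mark boundaries inside clusters. Blocks of high identity sit within groups. In the cluster from Olfr467 to Olfr519 a block crosses the first dotted line, while the genes right of the second form another block, except for Olfr510 and Olfr513.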

How the data were processed

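Hi-C was made from 2 samples of 1 group. Per the labels' design text, the contacts of both samples were merged by the authors on GRCm38 before the boundary call. The deposited file gives each boundary a score, used only within this list. For the caller, its window and filters: not given in the sources used here.

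Genes, starts and sequence came from GENCODE M21 and the GRCm38 reference (strain C57BL/6J), so rearrangements particular to 129P2/OlaHsd are not seen. Coordinates are 1-based. Coding sequences (the longest of each gene, at least 800 bases) were aligned globally with Biopython 1.88 and compared over aligned bases. Protein identity, planned at first, was not analysed here. Read uniqueness was measured with reads of 100 bases taken every 500 bases of chromosome 7 and aligned to the reference with minimap2 2.31, counting mapping quality of at least 30 as unique. Motifs were exact matches. Distance, interval, cluster and motif code was tested on simulated data.

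Values are counts and medians beside the same over all genes or boundaries, with no test. The genes and lists were chosen with earlier results of these data known. Genes are named by rule: first, last, nearest and farthest of each cluster, members within 10 kb of a boundary, members outside clusters, and the first and last of the fullest interval and of the shortest with at least 3 members; genes named for sequence identity or as neighbours were chosen after their values were seen. Intervals of shares are Wilson intervals for counting error only. Alternatives were other boundary sets, member sets, distances, cluster rules and motifs.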

Additional observations from a re-analysis of the deposited data

How the results depend on the processing

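Of 60 alternatives, 48 stayed within the 95% Wilson interval of the main share or within 1.5 times the main value, and 12 moved further. Leaving out boundaries within 50 kb of an assembly gap could move nothing, since no flanking boundary lay there. Over only 10 edges the Wilson interval is wide. Edge shares of 40% (Strong boundaries alone, or within 25 kb) and 80% (within 100 kb) were counted as staying, beside the main 60%. The count of 48 is therefore not a measure of how stable the results are. With Strong boundaries alone the median distance rose from 97.6 to 231 kb, the density inside clusters was 0.757 per Mb in place of 2.27, and the median interval was 800 kb in place of 312.5 kb. With the boundaries that score above the median of the list the median distance was 243 kb, the density 0.379 per Mb, the median interval 942.5 kb, 5.43% of members lay within 25 kb of a boundary in place of 13.2%, and 30% of edges had one within 50 kb in place of 60%. Both sets hold fewer boundaries. The share of members near a boundary was 7.75% at 10 kb and 27.1% at 50 kb. The share of flanking boundaries with a CTCF match was 21.1% with the stricter consensus and 26.3% within 5 kb, in place of 52.6%. Leaving out poorly mapped boundaries, pseudogenes or symbols with a suffix (-ps symbols and Olfr715b) moved none of the results it was applied to beyond these limits. Nor did leaving out Olfr503 and Olfr504, as chosen after seeing the data, or other cluster rules. Olfr503 and Olfr504 were left out for the results on distance to a boundary alone, and not for the identities. No paired analysis was possible because the deposited boundaries come from both replicates combined, so no replicate could be left out either.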

Other observations

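The intervals differed in what they held beside receptors. Of the 12, 6 held no other protein-coding start, namely those from Olfr1345-ps1 to Olfr1350, Olfr296-ps1 to Olfr292, Olfr693 to Olfr2, Olfr467 to Olfr478, Olfr479 to Olfr509 and Olfr510 to Olfr519. Among the 4 others of the interval around Olfr522 to Olfr542-ps1 are Cyp2e1, which encodes an ethanol-metabolising cytochrome P450, Syce1, a gene of the meiotic synaptonemal complex, and Cd163l1, a scavenger receptor gene. The interval of Olfr715b held Syt9, Nlrp14, Rbmxl2, Olfml1 and Ppfibp2.

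Base composition varied between intervals as well. GC content was lowest from Olfr310 to Olfr297, at 35.8%, and highest around Olfr520 and Olfr521, at 47.1%, beside 43.1% on the whole chromosome. Masked repeats covered 59.0% of the interval from Olfr467 to Olfr478 and 21.8% of the interval around Olfr520 and Olfr521, beside 35.4% on the chromosome. Unique reads were fewest in the former (70.7%) and most frequent in the latter (97.1%).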
